A study of Mus musculus with 24 samples.

Results

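The immunity-related GTPases (IRGs) are interferon-inducible GTPases of mouse cells, and 7 of them were followed here: Irgm1, Irgm2, Igtp, Iigp1, Tgtp1, Tgtp2 and Ifi47. The members were listed by gene symbol, with earlier results of these data known, and are 7 of the 35770 gene names in the deposited table. Each of the 7 was among the 13661 genes that passed the filter on low values, a TPM above 1 in at least 3 libraries. That filter was also met outside the groups in which the genes were high, since every member exceeded 1 TPM in at least 11 of the 18 libraries of the other groups. TPM is an abundance of transcripts, corrected for transcript length, that adds up to the same total in each library.

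IRGs act against pathogens that live in vacuoles, such as Toxoplasma and Chlamydia. The GKS class, named for a motif in the GTP-binding site and represented by Iigp1, Tgtp1, Tgtp2 and Ifi47, loads onto the vacuole membrane, whereas the GMS class, Irgm1, Irgm2 and Igtp, sits on the membranes of the cell and holds the GKS proteins in check there. Transcription of the family is switched on by interferons: interferon gamma acts through the receptor chains IFNGR1 and IFNGR2 and the kinases JAK1 and JAK2, the signal reaches gamma-activated sites (GAS) in promoters, and the induced factor IRF1 binds interferon-stimulated response elements (ISRE). In macrophages the family is known as part of the classically activated state.

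The libraries came from bone marrow-derived macrophages (BMDMs) of C57BL/6 mice grown with the growth factor M-CSF. There were 24 libraries in 8 groups of 3. BMDMs received control media without cancer cells, or media conditioned for 48 hours (conditioned media, CM) by LL2 Lewis lung carcinoma cells that were wild type (WT CM), KEAP1 knockout (KEAP1 KO CM) or NRF2 knockout (NRF2 KO CM). CM made up 75% of the medium in those groups and Complete-DMEM the rest, and each of the 4 media was combined for 24 hours with vehicle or with 100 nM CDDO-Me. CDDO-Me is a synthetic oleanane triterpenoid that activates the transcription factor NRF2, which KEAP1 otherwise keeps low. The knockouts were made in the cancer cells that conditioned the medium and not in the BMDMs, so that Keap1 and Nfe2l2 in these libraries do not check the labels. The labels do not state the number of clones or of mice. The library names hold a single code for each knockout, which may stand for a single clone. In that case knockout and clone cannot be told apart. A bone marrow suspension was divided over the wells. The labels call the 3 samples of a group independent, and the p-values below measure the spread between these samples only.

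The table used here gives TPM and no read numbers, so the depth behind a value is unknown. Libraries listed 15702 to 18993 genes above 0 TPM, and the libraries numbered 3 of NRF2 KO CM, with vehicle and with CDDO-Me, listed the fewest. Counts of IRGs called that involve NRF2 KO CM are given below with and without both libraries, and so are counts over other gene lists where they changed; for gene lists other than the 7 IRGs, leaving them out was chosen after seeing the data. The macrophage markers Adgre1, Csf1r, Itgam, Cd68, Mertk, Fcgr1, Lyz2 and Cd14 were all detected. Their summed level was 14934 TPM or more in every library, while 12 T, NK and B cell markers summed to at most 4.81 TPM in any library. The macrophage sum was 14934 to 18218 TPM in WT CM/CDDO-Me, 17357 to 18005 TPM in WT CM/vehicle and 28673 to 38385 TPM in NRF2 KO CM/CDDO-Me. Single macrophage markers differed between CDDO-Me and vehicle in WT CM by -1.41 to 3.35 on the log2 scale. Comparisons with a shared control group are not independent of each other.

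Of the 7 genes, 6 lie on chromosome 11 in 2 places, and Iigp1 lies on another chromosome (GRCm39, the authors' build, with GENCODE vM39 gene spans). Irgm1 (chr11:48752795-48763164, minus strand), Tgtp1 (chr11:48876154-48884999, minus), Tgtp2 (chr11:48948021-48955033, minus) and Ifi47 (chr11:48967412-48987813, plus) form the first group. Tgtp2 ends 12378 bases before Ifi47 starts. The other group, Igtp (chr11:58089840-58098417, plus) and Irgm2 (chr11:58090444-58113615, plus), starts 9102026 bases beyond Ifi47, and the annotated spans of the pair overlap by 7974 bases on the same strand. Tgtp1 and Tgtp2 are near-identical copies: 95.4% of the 31-base words of the Tgtp1 transcripts also occur in another gene, and 90.9% of all its words occur in Tgtp2, whereas the share was 4.9% for Ifi47 and 12.9% to 17.8% for the other members. The levels of the pair can therefore trade reads, and their sum is given beside them.

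RefSeq promoter windows, from 250 bases before to 50 bases after the transcript start, were available for 6 members and were read on GRCm39 after an exact match found once in the genome. The ISRE core, searched as the letters GAAA twinned 2 bases apart, occurs, on either strand, in 5 of the 6 windows and in 3.44% of 32851 promoters of the same length, and the GAS letters TTCNNNGAA in 4 of the 6 and in 8.3% of all promoters. In Igtp, Irgm2, Tgtp1 and Tgtp2 the GAS letters stand 2 bases before the ISRE core, an arrangement (chosen after these sequences were seen) that only 5 promoters, 0.0152%, hold; the fifth belongs to Gm12185, which is annotated over the Tgtp1 stretch. The 30 bases around the motifs are shown with GAS and ISRE letters in capitals, 5′ to 3′ on the strand of the gene. Igtp and Irgm2 share them almost letter for letter, and so do Tgtp1 and Tgtp2. These pairs differ from each other mostly outside the capitals, and the Irgm1 and Ifi47 stretches are unlike them. For Ifi47 the RefSeq window has neither motif. The stretch shown lies before other GENCODE starts of the gene, at 48977861 and 48977895, among 6 starts searched after that. Its ISRE core is on the opposite strand and shares bases with the GAS letters.
Irgm1 (chr11:48762257-48762286): ctgtttcaaGAAATAGAAACCGAAActgat
Irgm2 (chr11:58105724-58105753): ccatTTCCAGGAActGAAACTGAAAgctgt
Igtp (chr11:58090333-58090362): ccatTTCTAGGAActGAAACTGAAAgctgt
Tgtp1 (chr11:48883136-48883165): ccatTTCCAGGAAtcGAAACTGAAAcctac
Tgtp2 (chr11:48955095-48955124): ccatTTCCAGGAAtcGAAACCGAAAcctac
Ifi47 (chr11:48977751-48977780): gtcctTTTCTTTTTCCTGGAAatgtttatg
Between the last base of the ISRE core and the RefSeq start lie 14 and 20 bases in Irgm1, which has a pair of overlapping cores and no GAS letters, 24 in Igtp, 54 in Irgm2, 60 in Tgtp2 and 67 in Tgtp1. GENCODE places the Irgm1, Igtp, Tgtp1 and Ifi47 stretches inside exons of some longer transcripts of the same genes, the Irgm2 stretch in an intron of a longer Irgm2 transcript and the Tgtp2 stretch outside Tgtp2. Exons of other genes also cover the Irgm1 stretch (Gm74350) and the Ifi47 stretch (Gm74477). The Tgtp2 and Ifi47 stretches lie within the span of Or2v1. A match to these letters is a description and not a bound site.

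The first question was what CDDO-Me did to the IRGs in each medium. In WT CM and in KEAP1 KO CM, all 7 IRGs rose to levels of 249 TPM or more in each library, and in control media and in NRF2 KO CM none rose. The summed level of the 7 genes was 98.1 ± 9.64 TPM (SD, n = 3) in WT CM/vehicle BMDMs and 5957 ± 37.7 TPM in WT CM/CDDO-Me BMDMs. It was 92.6 ± 1.30 TPM in KEAP1 KO CM/vehicle and 6338 ± 215 TPM in KEAP1 KO CM/CDDO-Me, or 0.634% of all TPM. The sum was 79.7 ± 1.32 TPM in media/vehicle and 60.5 ± 2.59 TPM in media/CDDO-Me, and it was 93.6 ± 10.2 TPM in NRF2 KO CM/vehicle and 69.4 ± 3.19 TPM in NRF2 KO CM/CDDO-Me. Across all 7 genes the lowest library of the 6 with WT CM or KEAP1 KO CM and CDDO-Me lay above the highest of the other 18 by 17.6-fold for Irgm2 up to 467-fold for Iigp1. A separation of at least 10-fold between these libraries was found in 60 of 13661 genes, 0.439%. In bulk libraries, more cells that express a gene and more RNA per cell cannot be told apart.

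**Figure D1:**
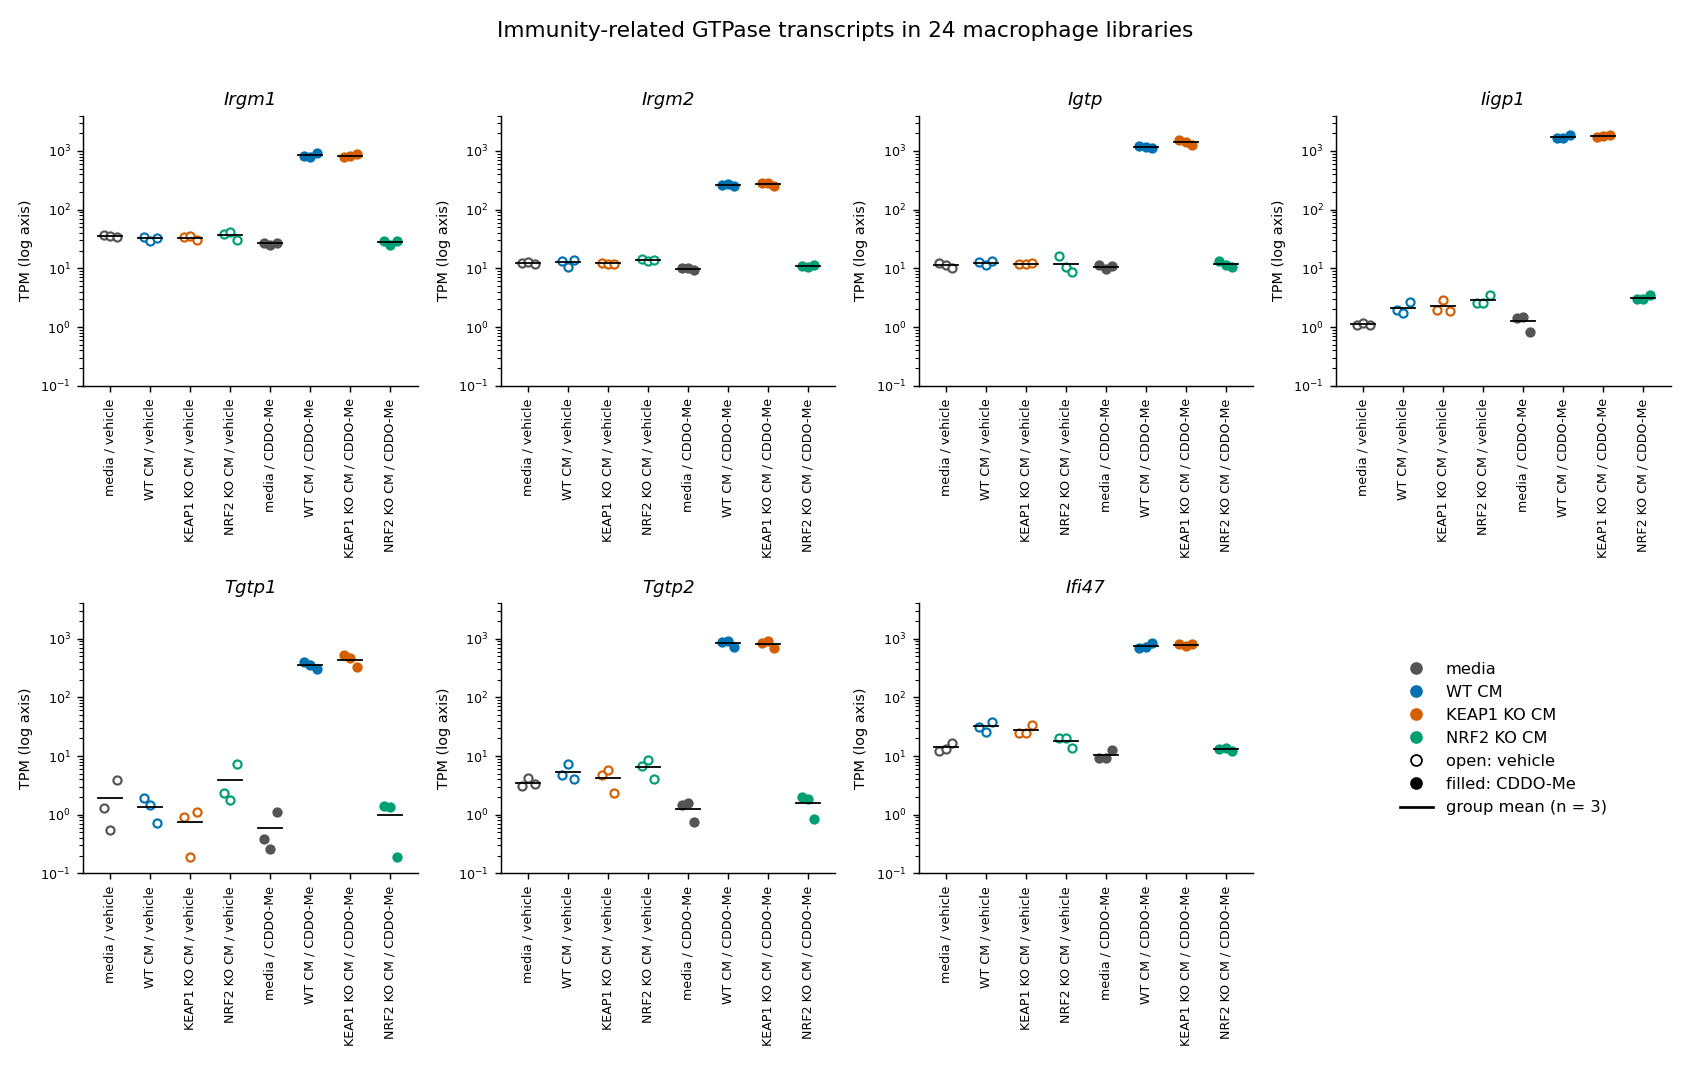
Level of each IRG in TPM on a log axis, 1 panel per gene, in the 8 groups; points are libraries (3 per group, open for vehicle, filled for CDDO-Me, colored by medium) and bars are group means. All 6 libraries of WT CM and KEAP1 KO CM with CDDO-Me sit between 249 and 1880 TPM, and no other library exceeds 41.3 TPM.

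Irgm1 is the GMS protein with the widest known role, including in autophagy and in the lifespan of infected macrophages. In WT CM its level was 33.6, 29.8 and 33.4 TPM with vehicle and 815, 797 and 905 TPM with CDDO-Me. In KEAP1 KO CM it was 34.6, 34.9 and 30.6 TPM with vehicle and 789, 808 and 884 TPM with CDDO-Me. Every CDDO-Me library was far above every vehicle library of the same CM, without overlap. The rise was 4.79 ± 0.11 (SE) on the log2 scale, limma adjusted p = 2.70e-17 in WT CM, a ratio of mean TPM of 26.0, and 4.76 ± 0.11 (SE) on the log2 scale, limma adjusted p = 3.44e-17 in KEAP1 KO CM, a ratio of 24.8. Irgm1 had the highest mean of the 7 in every vehicle group, with libraries that overlapped those of Ifi47 in WT CM and KEAP1 KO CM. Without cancer cells the level was 37.0, 35.0 and 34.0 TPM with vehicle and 27.5, 25.2 and 27.2 TPM with CDDO-Me, and in NRF2 KO CM it was 37.7, 41.3 and 30.4 TPM with vehicle and 29.3, 25.1 and 28.9 TPM with CDDO-Me. In both media the CDDO-Me libraries were all below the vehicle libraries, by a small margin. The difference missed the threshold, at -0.38 ± 0.11 (SE) on the log2 scale, limma adjusted p = 0.0522 and a 95% interval of -0.61 to -0.14 in media, and at -0.34 ± 0.11 (SE) on the log2 scale, limma adjusted p = 0.0614 and -0.58 to -0.11 in NRF2 KO CM.

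Irgm2, which is known to restrain inflammasome activity as well as the GKS proteins, was the least abundant IRG wherever the family was high. Its level in WT CM was 13.5, 10.5 and 13.8 TPM with vehicle and 264, 274 and 249 TPM with CDDO-Me. Its level in KEAP1 KO CM was 12.4, 11.8 and 12.1 TPM with vehicle and 284, 289 and 256 TPM with CDDO-Me. Vehicle and CDDO-Me libraries did not overlap in either CM. The rise of 4.42 ± 0.10 (SE) on the log2 scale, limma adjusted p = 2.17e-17, in WT CM, corresponded to a ratio of mean TPM of 20.9, and in KEAP1 KO CM the rise was 4.57 ± 0.10 (SE) on the log2 scale, limma adjusted p = 1.93e-17, a ratio of 22.9. Libraries of media held 12.3, 12.7 and 11.8 TPM with vehicle and 9.96, 10.1 and 9.41 TPM with CDDO-Me, and those of NRF2 KO CM held 14.1, 13.6 and 13.9 and 11, 10.6 and 11.5 TPM. The CDDO-Me libraries were again all slightly lower, with log2 differences of -0.27 (limma adjusted p = 0.140, 95% interval -0.48 to -0.06) and -0.28 (limma adjusted p = 0.0972, -0.49 to -0.07).

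Igtp, also known as Irgm3, is the GMS member found on the endoplasmic reticulum and lipid droplets. In WT CM it was listed at 12.9, 11.4 and 13.1 TPM with vehicle and at 1233, 1171 and 1110.0 TPM with CDDO-Me. The KEAP1 KO CM libraries gave 11.7, 12 and 12.3 TPM with vehicle and 1530.3, 1407 and 1266 TPM with CDDO-Me. Its rise was the largest of the GMS class in both CM, with no overlap. It reached 6.58 ± 0.14 (SE) on the log2 scale, limma adjusted p = 1.65e-17, or 94.0 times the vehicle mean in TPM, in WT CM, and 6.91 ± 0.14 (SE) on the log2 scale, limma adjusted p = 1.30e-17, or 117 times, in KEAP1 KO CM. In media the vehicle libraries gave 12.6, 11.6 and 10.3 TPM and the CDDO-Me libraries 11.2, 9.86 and 10.8 TPM, and in NRF2 KO CM they gave 16.2, 10.5 and 8.81 TPM and 13.1, 11.5 and 10.5 TPM. These groups overlapped, and the log2 differences of -0.08 (95% interval -0.39 to 0.22) and 0.05 (-0.25 to 0.35) had limma adjusted p of 0.939 and 0.901.

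Iigp1, a GKS effector that vesiculates the vacuole of Toxoplasma, had the lowest mean of the family in media/vehicle and the highest in KEAP1 KO CM and WT CM with CDDO-Me. WT CM libraries had 1.97, 1.76 and 2.69 TPM with vehicle and 1647, 1688 and 1879.6 TPM with CDDO-Me. KEAP1 KO CM libraries had 1.97, 2.88 and 1.86 TPM with vehicle and 1734, 1788 and 1844 TPM with CDDO-Me. Each CDDO-Me library stood far above each vehicle library. The rise was 9.26 ± 0.15 (SE) on the log2 scale, limma adjusted p = 3.28e-19, in WT CM, where it was the second largest of 13661 genes, and 9.28 ± 0.15 (SE) on the log2 scale, limma adjusted p = 3.14e-19, in KEAP1 KO CM. Ratios of mean TPM were 812 and 799, larger than the log2 values give, since adding 1 TPM before the logarithm reduces the change of genes with low levels. By mean TPM Iigp1 ranked 74th of 20127 genes above 0 in WT CM/CDDO-Me and 12261st of 20432 in media/vehicle. Media libraries had 1.07, 1.17 and 1.10 TPM with vehicle and 1.44, 1.48 and 0.828 TPM with CDDO-Me, and NRF2 KO CM libraries had 2.54, 2.53 and 3.53 TPM and 3.02, 2.96 and 3.53 TPM. The groups overlapped in both media, with log2 differences of 0.08 (95% interval -0.24 to 0.41, limma adjusted p = 0.95) and 0.14 (-0.18 to 0.46, limma adjusted p = 0.698).

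Tgtp1 and Tgtp2 encode near-identical GKS GTPases, first described as T-cell specific and also made by stimulated macrophages. For Tgtp1 the WT CM libraries gave 1.97, 1.44 and 0.712 TPM with vehicle and 397, 361 and 299.6 TPM with CDDO-Me, and the KEAP1 KO CM libraries 0.905, 0.190 and 1.12 TPM and 519, 463 and 327 TPM. For Tgtp2 the WT CM libraries gave 4.79, 7.28 and 4.09 TPM with vehicle and 894, 903 and 715 TPM with CDDO-Me, and the KEAP1 KO CM libraries 4.76, 5.80 and 2.34 TPM and 834, 913 and 688 TPM. Both genes were high in all 6 CDDO-Me libraries and low in all 6 vehicle libraries. In WT CM the rise of Tgtp1 was 7.38 ± 0.42 (SE) on the log2 scale, limma adjusted p = 5.64e-11, and that of Tgtp2 was 7.19 ± 0.24 (SE) on the log2 scale, limma adjusted p = 1.24e-14. In KEAP1 KO CM Tgtp1 rose by 8.12 ± 0.42 (SE) on the log2 scale, limma adjusted p = 1.35e-11, and Tgtp2 by 7.47 ± 0.24 (SE) on the log2 scale, limma adjusted p = 6.89e-15. The sum of the pair rose by 7.42 in WT CM and by 7.87 in KEAP1 KO CM on the log2 scale. Tgtp1 took 28.6% to 38.4% of the sum in these 6 libraries and 3.17% to 64.5% in the other 18, where the levels were low.

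Tgtp2 was the only member called lower with CDDO-Me, in media and in NRF2 KO CM. In media its level was 3.05, 4.18 and 3.40 TPM with vehicle and 1.46, 1.58 and 0.745 TPM with CDDO-Me. In NRF2 KO CM its level was 6.86, 8.42 and 4.08 TPM with vehicle and 1.97, 1.86 and 0.860 TPM with CDDO-Me. The CDDO-Me libraries were below the vehicle libraries in both media without overlap. The difference was -1.0 ± 0.24 (SE) on the log2 scale, limma adjusted p = 0.0149 in media, and -1.49 ± 0.24 (SE) on the log2 scale, limma adjusted p = 0.000322 in NRF2 KO CM. Tgtp1 was listed at 1.29, 0.554 and 3.93 TPM with vehicle and 0.388, 0.258 and 1.11 TPM with CDDO-Me in media, and at 2.36, 1.81 and 7.42 TPM and 1.40, 1.33 and 0.190 TPM in NRF2 KO CM, with limma adjusted p of 0.480 and 0.0954 and 95% intervals of -1.61 to 0.16 and -2.07 to -0.29 on the log2 scale. Its replicates were widely scattered, and single libraries numbered 3 were the highest of their vehicle groups. For the sum of the pair, which is not affected by how reads were split, the difference was -1.13 (limma adjusted p = 0.0057) in media and -1.72 (limma adjusted p = 6.93e-05) in NRF2 KO CM.

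Ifi47, a GKS gene whose protein is less well understood than Iigp1, was the member with the highest level in the CM/vehicle groups beside Irgm1. In WT CM the libraries held 31.6, 25.5 and 38.8 TPM with vehicle and 704, 726 and 837 TPM with CDDO-Me. In KEAP1 KO CM the libraries held 24.9, 25.0 and 33.6 TPM with vehicle and 797, 766 and 826 TPM with CDDO-Me. Vehicle and CDDO-Me libraries were again far apart. The rise was 4.67 ± 0.18 (SE) on the log2 scale, limma adjusted p = 1.42e-13, with a ratio of mean TPM of 23.6, in WT CM, and 4.97 ± 0.18 (SE) on the log2 scale, limma adjusted p = 5.21e-14, with a ratio of 28.6, in KEAP1 KO CM. Media libraries held 12.3, 13.3 and 16.5 TPM with vehicle and 9.19, 9.18 and 12.7 TPM with CDDO-Me, and NRF2 KO CM libraries 20.5, 20.3 and 13.7 TPM and 13.4, 14 and 12.4 TPM. These groups overlapped, and the log2 differences of -0.39 (95% interval -0.77 to -0.01) and -0.38 (-0.76 to 0.00) had limma adjusted p of 0.288 and 0.243.

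In counts, 7 of 7 IRGs were higher with CDDO-Me than with vehicle in WT CM, where 14.5% of all genes tested were higher, and 7 of 7 in KEAP1 KO CM, where the share was also 14.5%. Vehicle and CDDO-Me libraries did not overlap in any of the 7 genes, beside 19.3% of all genes higher without overlap in WT CM and 16.7% in KEAP1 KO CM. The median log2 difference of the 7 genes was 6.58 in WT CM and 6.91 in KEAP1 KO CM, beside -0.01 and -0.02 over all genes tested. In media 1 of 7, Tgtp2, was lower, beside 2.79% of all genes, and in NRF2 KO CM the same gene was lower, beside 4.74%. CDDO-Me libraries lay below vehicle libraries without overlap for Irgm1, Irgm2 and Tgtp2 in media, where 18.2% of genes did so, and for these and Tgtp1 in NRF2 KO CM, where 10% did. With the replicate number of the labels as a block, which pairs the samples in these comparisons, 2 IRGs were lower in media (Irgm1 and Tgtp2) and 3 in NRF2 KO CM (Irgm1, Irgm2 and Tgtp2). Calls over all genes, in either direction, rose too, from 822 to 1464 in media and from 1313 to 1986 in NRF2 KO CM. No IRG was called in media without media/vehicle replicate 2 or without media/CDDO-Me replicate 3, nor in NRF2 KO CM when only the compared groups were fitted. That last fit called 139 genes of all tested, against 1313. Without both NRF2 KO CM libraries numbered 3, 3 were lower in media and 2 in NRF2 KO CM, Irgm1 and Tgtp2. Over all genes, calls in media then rose from 822 to 2025.

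**Figure D2:**
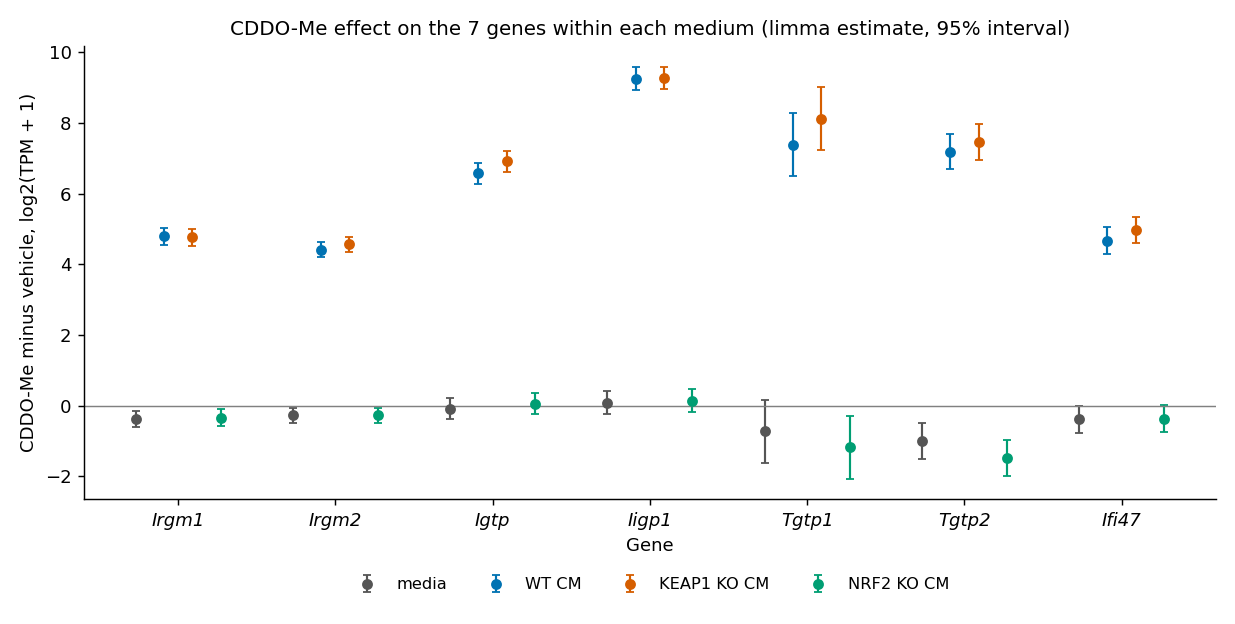
Difference between CDDO-Me and vehicle for each IRG within each medium, on the scale of log2(TPM + 1); points are limma estimates and bars are 95% intervals. Estimates run from 4.42 to 9.28 in WT CM and KEAP1 KO CM and from -1.49 to 0.14 in media and NRF2 KO CM.

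Whether the effect of CDDO-Me depended on the medium was tested with interaction contrasts. The effect was larger in WT CM than in media for 7 of 7 IRGs, beside 8.59% of all genes, by 4.69 (Irgm2) to 9.17 (Iigp1) on the log2 scale. It was larger in KEAP1 KO CM than in media for 7 of 7, beside 8.19% of all genes, and larger in WT CM than in NRF2 KO CM for 7 of 7, beside 7.61%. Without both NRF2 KO CM libraries numbered 3 the effect was still larger in WT CM than in NRF2 KO CM for 7 of 7. Between KEAP1 KO CM and WT CM the effect differed for 0 of 7 by limma, beside 0% of all genes; 0 members and 224 genes had an unadjusted p under 0.05. The interval of that difference was -0.44 to 0.48 for Iigp1, -0.36 to 0.30 for Irgm1 and -0.52 to 1.99 for Tgtp1, the widest. Between NRF2 KO CM and media it differed for 0 of 7 as well, beside 0% of all genes, with 0 members and 358 genes at an unadjusted p under 0.05, and an interval of -1.21 to 0.22 for Tgtp2.

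Set directly against each other, KEAP1 KO CM/CDDO-Me and WT CM/CDDO-Me BMDMs differed in 0 of 7 IRGs by limma, beside 6 genes, 0.0439%, of all tested; 0 members and 560 genes had an unadjusted p under 0.05. Igtp was the only member whose libraries did not overlap, beside 6.28% of all genes with the KEAP1 KO CM libraries the higher, at 1233, 1171 and 1110.0 TPM in WT CM/CDDO-Me and 1530.3, 1407 and 1266 TPM in KEAP1 KO CM/CDDO-Me. The KEAP1 KO CM libraries were the higher, and the lowest of them exceeded the highest of the others by little. The log2 difference was 0.23 with a 95% interval of -0.08 to 0.53 for Igtp, 0.01 (-0.31 to 0.34) for Iigp1 and 0.26 (-0.63 to 1.15) for Tgtp1. Differences inside these intervals are compatible with the 3 libraries per group, and the intervals are not adjusted for the number of genes.

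The second question was what CM alone did. With vehicle, Iigp1 and Ifi47 were higher in WT CM and in KEAP1 KO CM than in media, and none of the GMS genes was called. Against the media/vehicle libraries given above, Iigp1 was higher in every WT CM/vehicle library, by 0.60 ± 0.15 (SE) on the log2 scale, limma adjusted p = 0.0202, a ratio of mean TPM of 1.93. Ifi47 was higher by 1.19 ± 0.18 (SE) on the log2 scale, limma adjusted p = 0.000211, a ratio of 2.27. These were 2 of 7 IRGs, beside 4.38% of all genes. In KEAP1 KO CM the same 2 of 7 were higher, beside 4.88% of all genes, at 0.59 ± 0.15 (SE) on the log2 scale, limma adjusted p = 0.0201 for Iigp1, and 0.93 ± 0.18 (SE) on the log2 scale, limma adjusted p = 0.00203 for Ifi47. The Ifi47 call held without any single library, while the Iigp1 call was lost without any of the 3 media/vehicle libraries, without WT CM/vehicle replicate 3, without KEAP1 KO CM/vehicle replicate 2 and, for WT CM, when only the compared groups were fitted. With the replicate block Tgtp2 was also higher in WT CM/vehicle, at a log2 difference of 0.52 and a limma adjusted p of 0.0226, against 0.259 without the block, while its near-identical copy Tgtp1 was at -0.13 and the sum of the pair differed by 0.32 (limma adjusted p = 0.590), both without the block. Calls over all genes, in either direction, rose from 988 to 1743 with the block. Of the GMS genes, Irgm1 had a log2 difference of -0.06 (95% interval -0.29 to 0.17) in WT CM, Irgm2 0.09 (-0.12 to 0.30) and Igtp 0.18 (-0.13 to 0.48).

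NRF2 KO CM/vehicle and media/vehicle BMDMs differed in 0 of 7 IRGs by limma, beside 1 gene, 0.00732%, of all tested. At an unadjusted p under 0.05 there were 1649 genes and 2 members, Iigp1, whose 3 NRF2 KO CM libraries were all above the 3 media libraries (so were those of 6.95% of all genes) at 0.85 on the log2 scale (limma adjusted p = 0.179), and Tgtp2 at 0.67 (limma adjusted p = 0.408). Compared with NRF2 KO CM/vehicle, WT CM/vehicle BMDMs were higher in 1 of 7, Ifi47, at 0.85 ± 0.18 (SE) on the log2 scale, limma adjusted p = 0.00460, beside 6.84% of all genes, and this call was lost when only the compared groups were fitted. It was kept without both NRF2 KO CM libraries numbered 3. Without them NRF2 KO CM/vehicle still differed from media/vehicle in 0 of 7, with Iigp1 at 0.70 (limma adjusted p = 0.392) and Tgtp2 at 0.88 (limma adjusted p = 0.629). KEAP1 KO CM/vehicle and WT CM/vehicle BMDMs differed in 0 of 7 by limma, beside 0% of all genes, with 0 members and 350 genes at an unadjusted p under 0.05. For Ifi47 that difference was -0.25 with an interval of -0.63 to 0.13, and for Iigp1 it was -0.01 with an interval of -0.33 to 0.32.

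**Figure D3:**
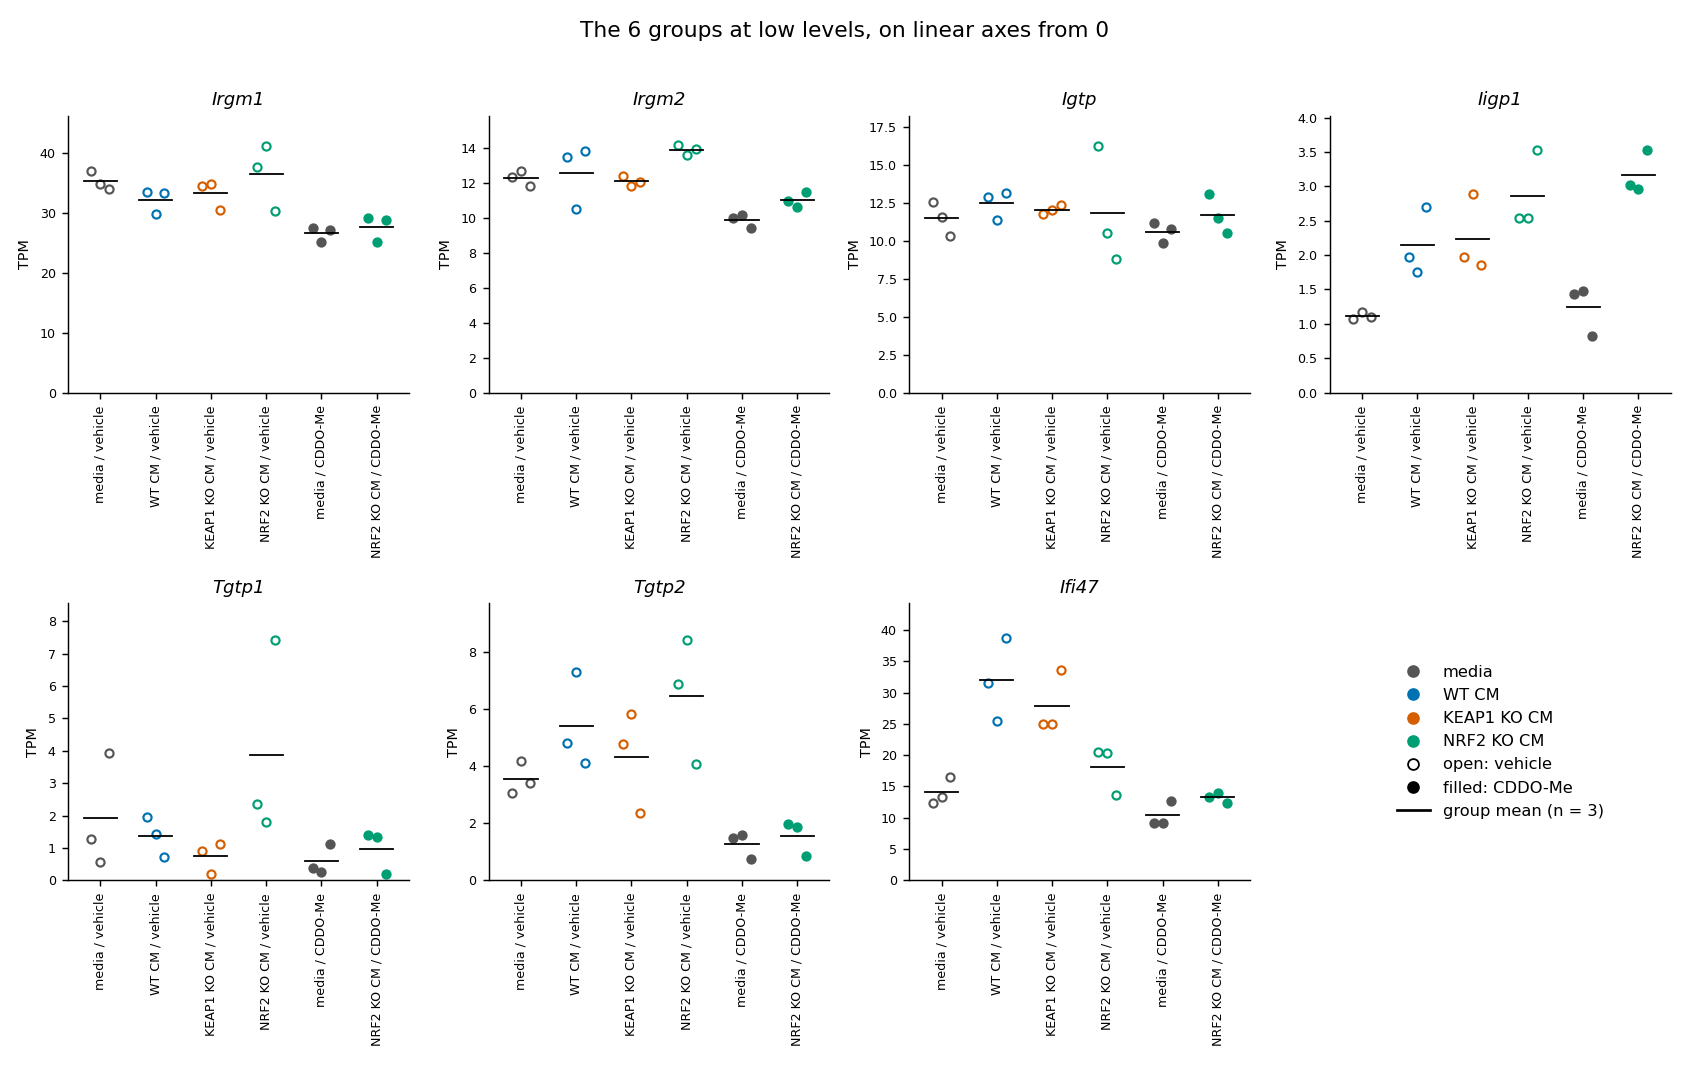
Level of each IRG in TPM on linear axes from 0, in the 6 groups in which the family was low; points are libraries (3 per group) and bars are group means. Ifi47 lies between 24.9 and 38.8 TPM in WT CM and KEAP1 KO CM with vehicle and between 9.18 and 20.5 TPM elsewhere, and Tgtp2 is lowest in the CDDO-Me groups of media and NRF2 KO CM.

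Compared with media/vehicle, WT CM/CDDO-Me BMDMs were higher in 7 of 7 IRGs (14.6% of all genes were higher) and KEAP1 KO CM/CDDO-Me BMDMs in 7 of 7 (14%). NRF2 KO CM/CDDO-Me BMDMs were higher in Iigp1, with all 3 libraries above those of media/vehicle, at 0.99 ± 0.15 (SE) on the log2 scale, limma adjusted p = 0.000203, beside 4.8% of all genes higher. They were lower in Tgtp2, at -0.82 ± 0.24 (SE) on the log2 scale, limma adjusted p = 0.0338, beside 5.39% of all genes lower. Only the Iigp1 call remained without the filter, with the compared groups fitted alone, without any of the media/vehicle libraries and without NRF2 KO CM/CDDO-Me replicate 3. With the replicate block Irgm1 was lower too, while calls over all genes, in either direction, rose from 1392 to 2189. Without both NRF2 KO CM libraries numbered 3, Iigp1 was higher and Irgm1 lower, and Tgtp2 was not called.

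The order of the genes changed along with the levels. In media/vehicle, Irgm1 made up 44.3% of the summed TPM of the 7 genes, Ifi47 17.6%, Irgm2 15.4%, Igtp 14.4% and the other 3 less than 5% each. In WT CM/CDDO-Me, Iigp1 led with 29.2%, followed by Igtp with 19.7%. Irgm1, Tgtp2 and Ifi47 came next with overlapping libraries, then Tgtp1, and Irgm2 was last with 4.41%. The order was the same in KEAP1 KO CM/CDDO-Me, with neighbours overlapping at the same ranks. The GKS class made up 25.9% ± 4.44 (SD, n = 3) of the sum in media/vehicle, 41.6% ± 1.66 in WT CM/vehicle, 37.9% ± 3.10 in KEAP1 KO CM/vehicle and 33.6% ± 1.46 in NRF2 KO CM/vehicle. It was 61.8% ± 0.591 in WT CM/CDDO-Me and 60.5% ± 0.608 in KEAP1 KO CM/CDDO-Me, but 22.2% ± 2.11 in media/CDDO-Me and 27.3% ± 2.43 in NRF2 KO CM/CDDO-Me.

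**Figure D4:**
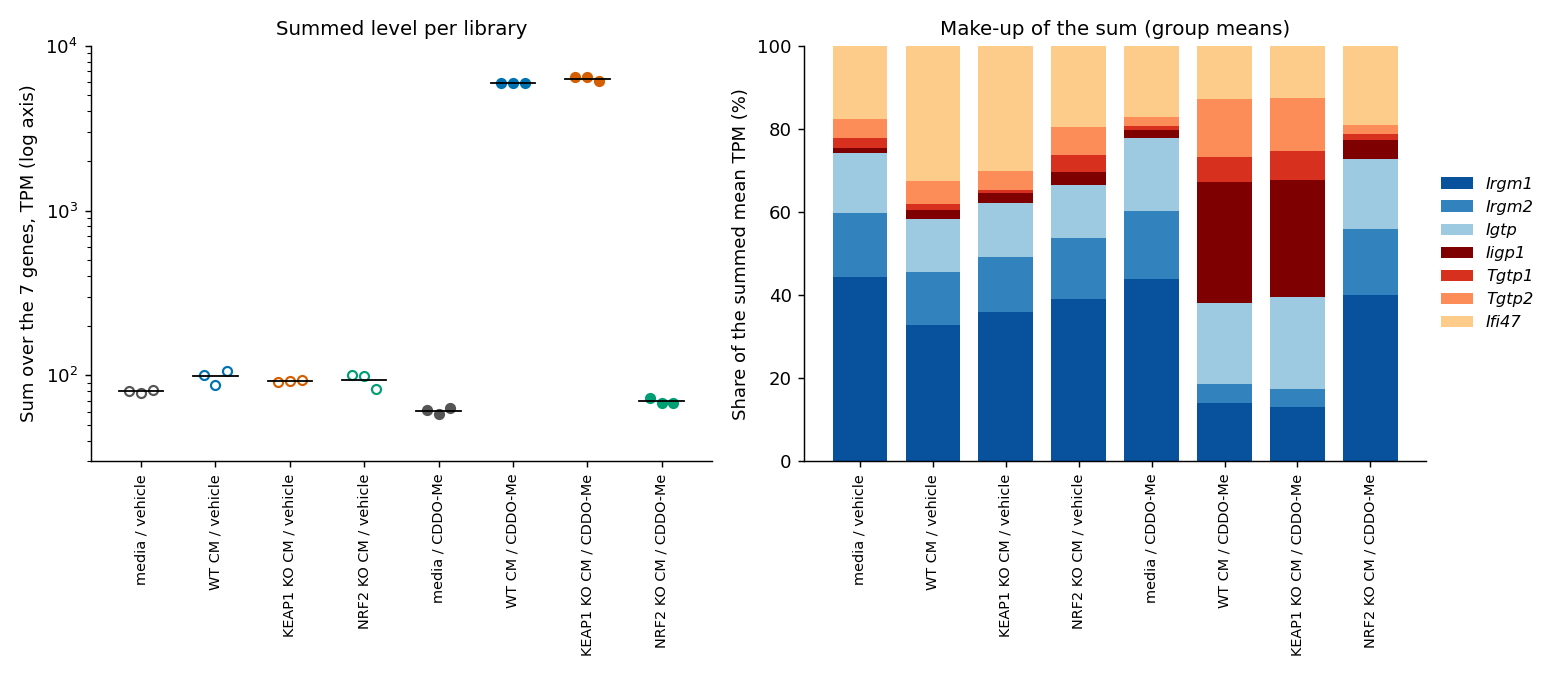
Left, summed level of the 7 IRGs per library in TPM on a log axis, with group means as bars; right, the share of each gene in the sum of group mean TPM, in percent, blue for the GMS class and red to orange for the GKS class. With CDDO-Me, WT CM reaches 5957 and KEAP1 KO CM 6338 TPM on average, with Iigp1 at 29.2% and 28.2% of the sum against 1.39% in media/vehicle.

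Further members of the family were in the table. Of 17 other IRG names searched, 9 were listed and 8 were tested. With CDDO-Me, 7 of the 8 were higher in WT CM and 7 in KEAP1 KO CM, beside 14.5% of all genes in each. The median log2 differences were 3.98 and 4.09. By limma, 0 were called in media or in NRF2 KO CM (0 and 3 at an unadjusted p under 0.05). In NRF2 KO CM 1, 9930111J21Rik2, was lower without the libraries numbered 3. Gm12250, the gene of Irgb10, which acts on bacterial membranes, had 10.4, 8.72 and 11.6 TPM in WT CM/vehicle and 430.1, 416 and 479.7 TPM in WT CM/CDDO-Me. It was high in all CDDO-Me libraries of that CM, with a difference of 5.44 ± 0.18 (SE) on the log2 scale, limma adjusted p = 8.05e-15. Gm5431 had 8.08 ± 0.804 TPM (SD, n = 3) in WT CM/vehicle and 88.7 ± 8.64 TPM in WT CM/CDDO-Me, a difference of 3.43 ± 0.20 (SE) on the log2 scale, limma adjusted p = 7.13e-11. Irgq, a divergent member that is not induced by interferon, had 11.3 ± 0.611 TPM in WT CM/vehicle and 8.95 ± 1.27 TPM in WT CM/CDDO-Me, a difference of -0.20 ± 0.18 (SE) on the log2 scale, limma adjusted p = 0.509. With vehicle, Gm12250 was higher in WT CM than in media by 1.06 ± 0.18 (SE) on the log2 scale, limma adjusted p = 0.000558, and Iigp1c by 1.82 ± 0.49 (SE) on the log2 scale, limma adjusted p = 0.0278, with widely scattered libraries. Iigp1c shares 11.1% of the 31-base words of Iigp1, so part of its level may belong to Iigp1.

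The genes of the interferon pathway were taken in order, from lists chosen with earlier results of these data known. Among the ligands, Ifng, which encodes interferon gamma, was listed at 0 in 23 of 24 libraries, with 0.0637 TPM in the remaining library, WT CM/vehicle replicate 1. Ifnb1 was also listed at 0 in 23 of 24, and Ifna1, Ifna2, Ifna4, Ifna5, Ifnl2 and Ifnl3 in all 24. At 24 hours, transcripts of these ligands were thus listed in none of the 6 libraries in which the IRGs were high, and proteins in the medium were not measured. Il27, a cytokine of activated macrophages, and Il18 passed the filter, and both were higher with CDDO-Me in WT CM, Il27 at 4.16 ± 0.28 (SE) on the log2 scale, limma adjusted p = 5.56e-10, and Il18 at 1.01 ± 0.24 (SE) on the log2 scale, limma adjusted p = 0.00282.

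The receptor chains and kinases were mostly not called. Ifngr1 was at 211, 198 and 237 TPM in WT CM/vehicle and 154, 149 and 146 TPM in WT CM/CDDO-Me, a difference of -0.39 ± 0.16 (SE) on the log2 scale, limma adjusted p = 0.0866. Ifngr2 differed by 0.08 ± 0.19 (SE) on the log2 scale, limma adjusted p = 0.824, and Jak1 by -0.01 ± 0.09 (SE) on the log2 scale, limma adjusted p = 0.975. None of these 3 passed the threshold, whereas Jak2 did. Jak2 was at 20.0, 21.9 and 19.4 TPM in media/vehicle, 40.7, 43.9 and 43.6 TPM in WT CM/vehicle and 51.1, 49.1 and 52.5 TPM in WT CM/CDDO-Me. The libraries of the 3 groups did not overlap, with a difference of 1.10 ± 0.12 (SE) on the log2 scale, limma adjusted p = 3.62e-06, between WT CM and media with vehicle, and of 0.38 ± 0.12 (SE) on the log2 scale, limma adjusted p = 0.0227, between CDDO-Me and vehicle in WT CM. Of 7 receptors and kinases, 2 were higher with CDDO-Me in WT CM and 2 in KEAP1 KO CM, beside 14.5% of all genes in each. None was called by limma in media or NRF2 KO CM (0 and 2 at an unadjusted p under 0.05). Without both NRF2 KO CM libraries numbered 3, Jak2 was called higher there.

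Transcription factors of the pathway were higher with CDDO-Me where the IRGs were. Irf1 was at 74.6, 56.8 and 112 TPM in WT CM/vehicle and 889.5, 915 and 986 TPM in WT CM/CDDO-Me. The groups did not overlap, and the rise was 3.69 ± 0.24 (SE) on the log2 scale, limma adjusted p = 4.19e-10. In media Irf1 differed by 0.31 (limma adjusted p = 0.680) and in NRF2 KO CM by 0.25 (limma adjusted p = 0.650). All 10 interferon transcription factors counted, which include Batf2, Stat2 and Ciita, were higher with CDDO-Me in WT CM and in KEAP1 KO CM, at medians of 2.26 and 2.33, while 0 were called by limma in media (2 at an unadjusted p under 0.05) and 2 in NRF2 KO CM, Nlrc5 and Stat3, with or without the libraries numbered 3. Of all genes, 14.5% were higher in WT CM, 14.5% in KEAP1 KO CM and 4.87% in NRF2 KO CM.

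Of the feedback inhibitors, Socs1, which blocks JAK kinases, was already higher with WT CM alone. It was at 1.2, 0.978 and 0.652 TPM in media/vehicle, 22.3, 23.1 and 25.8 TPM in WT CM/vehicle and 111, 111 and 125 TPM in WT CM/CDDO-Me. The 3 groups did not overlap. The step from media to WT CM was 3.71 ± 0.21 (SE) on the log2 scale, limma adjusted p = 3.07e-10, and that from vehicle to CDDO-Me in WT CM was 2.37 ± 0.21 (SE) on the log2 scale, limma adjusted p = 3.50e-08. In NRF2 KO CM/vehicle Socs1 was at 0.631, 1.14 and 0.169 TPM, and in NRF2 KO CM/CDDO-Me at 1.28, 1.16 and 0.316 TPM. Of 5 inhibitors 3 were higher with CDDO-Me in WT CM and 3 in KEAP1 KO CM, beside 14.5% of all genes in each.

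**Figure D5:**
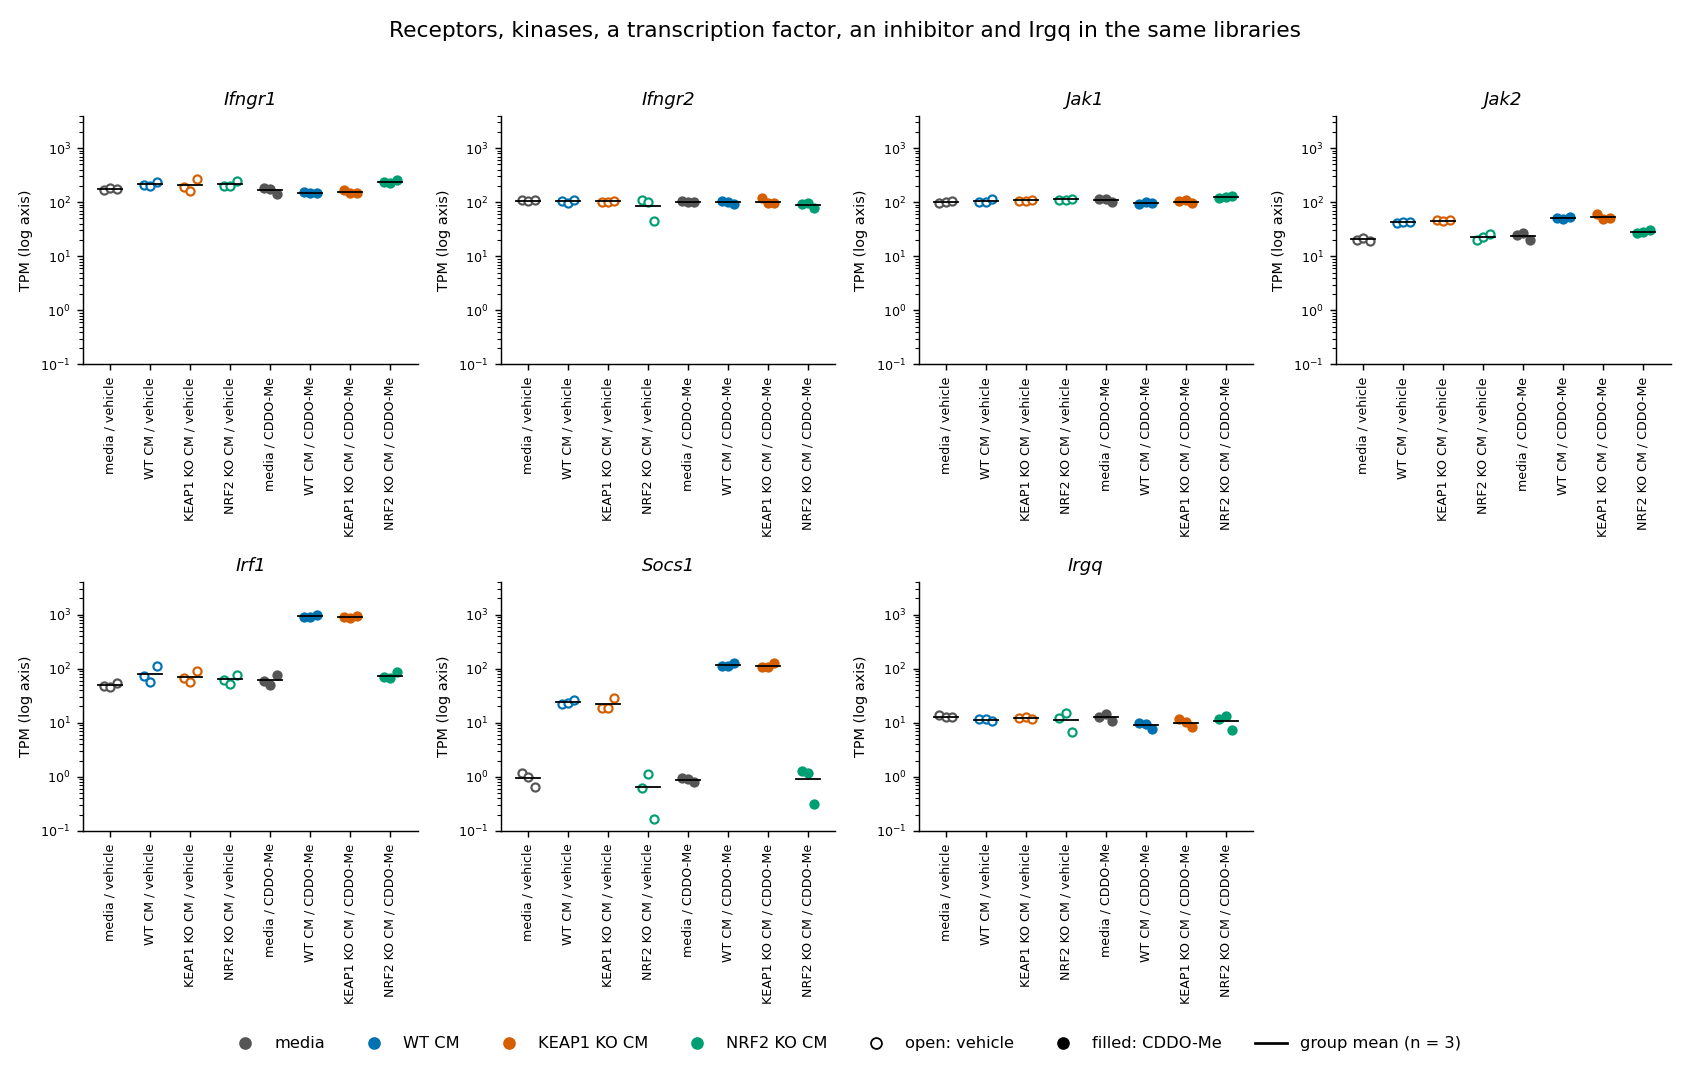
Level in TPM on a log axis of Ifngr1, Ifngr2, Jak1, Jak2, Irf1, Socs1 and Irgq in the 8 groups; points are libraries (3 per group) and bars are group means. Ifngr1 lies between 146 and 237 TPM in WT CM, Irf1 is high in WT CM and KEAP1 KO CM with CDDO-Me, and Socs1 is already at 23.7 TPM on average in WT CM/vehicle against 0.942 TPM in media/vehicle.

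Guanylate-binding proteins (GBPs), which join the IRGs on pathogen vacuoles, had the same direction in every comparison with CDDO-Me in which the IRGs rose. In WT CM 11 of 11 were higher, and in KEAP1 KO CM 11 of 11, at medians of 6.87 and 7.02. Of all genes tested, 14.5% were higher in each CM, a share that also stands beside the response genes below. In media and in NRF2 KO CM 0 of 11 were called by limma (0 and 2 at an unadjusted p under 0.05). Gbp2 had 12.2 ± 4.67 TPM (SD, n = 3) in WT CM/vehicle and 4774 ± 799 TPM in WT CM/CDDO-Me, and Gbp2b was listed at 0 in all media and CM libraries with vehicle. Interferon gamma response genes such as Cxcl9 and Psmb9 were higher in 11 of 11 in both CM, at medians of 2.90 and 3.07, and type I interferon response genes such as Isg15 and Ifit1 in 12 of 12, at 2.90 and 2.83. In NRF2 KO CM 3 of 12 type I response genes were lower with CDDO-Me, beside 4.74% of all genes. Ifi44 was 1 of them at -0.88 ± 0.23 (SE) on the log2 scale, limma adjusted p = 0.0157. Without both libraries numbered 3 there were 2, Isg15 and Oas1a, and Ifi44 was at -0.71 (limma adjusted p = 0.130).

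The autophagy conjugation genes, whose products help to load IRGs onto vacuoles, were not called with CDDO-Me in WT CM or KEAP1 KO CM, where 0 of 10 passed by limma (0 and 2 at an unadjusted p under 0.05). In media 1 was higher, beside 3.23% of all genes, and in NRF2 KO CM 3, beside 4.87%, among them Map1lc3b at 0.38 ± 0.10 (SE) on the log2 scale, limma adjusted p = 0.0155. Without both NRF2 KO CM libraries numbered 3 only 1, Gabarapl1, was higher, and Map1lc3b was at 0.23 (limma adjusted p = 0.125). Of 7 genes for ubiquitin and its adaptors at the vacuole, 3 were higher in WT CM, with Trim21 at 2.10 ± 0.12 (SE) on the log2 scale, limma adjusted p = 4.21e-11, Ubb at 0.57 ± 0.10 (SE) on the log2 scale, limma adjusted p = 0.000105 and Sqstm1 at 0.57 ± 0.14 (SE) on the log2 scale, limma adjusted p = 0.00362. In KEAP1 KO CM 4 were higher, in media 1 and in NRF2 KO CM 2, Sqstm1 and Ubb, which were also the 2 called without the libraries numbered 3. Of all genes tested, 14.5% were higher with CDDO-Me in WT CM and 14.5% in KEAP1 KO CM. NRF2 target genes were higher with CDDO-Me in all 4 media, 8 of 8 in media, in KEAP1 KO CM and in NRF2 KO CM (also without the libraries numbered 3) and 7 of 8 in WT CM. Nqo1, an oxidoreductase, rose by 4.86 ± 0.33 (SE) on the log2 scale, limma adjusted p = 2.19e-08, in media and by 3.69 ± 0.33 (SE) on the log2 scale, limma adjusted p = 3.03e-08, in WT CM. The BMDMs of media and NRF2 KO CM, in which no IRG rose, also had higher NRF2 target levels with CDDO-Me. The 8 targets summed to 2161 to 2291 TPM in WT CM/CDDO-Me and 2636 to 3512 TPM in KEAP1 KO CM/CDDO-Me. They summed to 3746 to 5030 TPM in media/CDDO-Me and 4015 to 5618 TPM in NRF2 KO CM/CDDO-Me. How NRF2 target levels relate to the IRG levels was not tested.

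Markers of other cell types had the following levels. The 7 dendritic cell markers summed to 100 to 127 TPM in WT CM/CDDO-Me and 47.0 to 86.2 TPM in KEAP1 KO CM/CDDO-Me, against 1.19 to 5.70 TPM in the other groups. Nearly all of this was Clec9a, at 105 ± 16 TPM (SD, n = 3) in WT CM/CDDO-Me and 0.192 ± 0.267 TPM in WT CM/vehicle, while Flt3, Zbtb46, Siglech, Ccr7 and Cd209a were under 1 TPM in both high groups. Of 4 dendritic cell markers tested, Clec9a and Xcr1 were higher in WT CM and in KEAP1 KO CM, and Cd209a was lower, at -2.18 ± 0.17 (SE) on the log2 scale, limma adjusted p = 6.96e-09, in WT CM and -1.76 ± 0.17 (SE) on the log2 scale, limma adjusted p = 1.49e-07, in KEAP1 KO CM. The 8 neutrophil markers summed to 33.5 to 60.2 TPM in WT CM/CDDO-Me against 11.7 to 38.5 TPM in WT CM/vehicle, and to 65.7 to 76.2 TPM in KEAP1 KO CM/CDDO-Me against 16.6 to 25.8 TPM in KEAP1 KO CM/vehicle. Where no IRG rose they summed to 32.8 to 52.0 TPM in media/CDDO-Me against 15.5 to 28.0 TPM in media/vehicle. In NRF2 KO CM, where no IRG rose either, they summed to 34.7 to 65.4 TPM with CDDO-Me against 14.4 to 31.4 TPM with vehicle. The sums with CDDO-Me lay above those with vehicle, without overlap, in KEAP1 KO CM, media and NRF2 KO CM, and overlapped them in WT CM. Of 5 neutrophil markers tested, 1 was called higher in WT CM and 1 in KEAP1 KO CM, beside 14.5% of all genes in each. In media 0 were called by limma (1 at an unadjusted p under 0.05). Their log2 differences ran from -0.52 to 2.19 in WT CM and -0.17 to 2.54 in KEAP1 KO CM. The range was -0.12 to 1.11 in media and -0.22 to 1.79 in NRF2 KO CM. Ly6g, Elane and Mpo were under 1 TPM in the WT CM groups. The 11 fibroblast and tumor cell markers summed to 258 to 694 TPM in WT CM/CDDO-Me, 664 to 1253 TPM in WT CM/vehicle and 1121 to 1860 TPM in media/vehicle. They summed to 218 to 924 TPM in KEAP1 KO CM/CDDO-Me and 961 to 1724 TPM in KEAP1 KO CM/vehicle. The sums were 1074 to 2795 TPM in media/CDDO-Me, 544 to 2013 TPM in NRF2 KO CM/CDDO-Me and 898 to 2683 TPM in NRF2 KO CM/vehicle. Epcam was under 1 TPM in every group, and so were Krt8 and Krt18 in the media, WT CM and NRF2 KO CM groups. The 12 T, NK and B cell markers, genes of cells that make interferon gamma among them, summed to 0.836 to 1.97 TPM in WT CM/CDDO-Me and 1.46 to 1.77 TPM in WT CM/vehicle, with Cd3d, Cd3e, Ncr1 and Prf1 under 1 TPM. The part of these cells in the IRG result was not tested.

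Genes outside the family with the most similar pattern over the 8 group means were found by Pearson correlation with the mean profile of the 7 IRGs, as a description over 10047 genes. The nearest included Gbp6 (r = 0.9996), Gbp5, Gbp8, Gbp9, H2-Q4, Itgb7, Clic5, Dtx3l and Gbp4 (r = 0.9981). Gbp6 had group means of 2.54 TPM in WT CM/vehicle and 514 TPM in WT CM/CDDO-Me. A correlation of 0.99 or more was found for 81 genes, and each such value rests mainly on the 2 of 8 means that stand far above the others.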

How the data were processed

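RNA of 24 BMDM samples, 3 in each of 8 groups, was measured by poly-A RNA sequencing. The authors had the libraries made and sequenced by Novogene and pseudo-aligned the reads with kallisto to GRCm39 transcripts. They deposited a table of values per gene that is named for length-scaled TPM gene counts, and its values were read here as TPM. The smallest value above 0 of genes with 1 transcript fell with length, from a median of 0.0603 at 600 to 1000 bases to 0.0145 at 2000 to 4000 bases, as values divided by length do. The study's own methods filtered low counts, scaled by trimmed means of M values (TMM) and used limma. Here the deposited TPM were mapped to samples by the library names in the labels, with 0 columns left unmapped. A line without a gene name, 0.0199% to 0.0635% of TPM, was left out.

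Genes over 1 TPM in at least 3 libraries were kept. TPM were scaled by unweighted TMM (trims of 30% on M and 5% on A, factors 0.884 to 1.11), and log2(TPM + 1) was fitted with 1 mean per group in limma 3.58.1 (R 4.3.3) with a trend in the prior variance and 16 residual degrees of freedom. A fold change on this scale understates the change of low genes. P-values were two-sided and adjusted by Benjamini-Hochberg over all 13661 genes, with a threshold of 0.05. Intervals are 95% limma intervals without adjustment. Levels in the text are TPM as deposited. The script was tested on simulated data with planted changes. Figures used Python 3.11.15 and matplotlib 3.10.9.

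The members and gene lists were chosen with earlier results of these data known. All 7 members are named. From each further list at most 5 genes with the smallest and 2 with the largest adjusted p in WT CM/CDDO-Me against media/vehicle are named, beside genes that the order of the pathway needs and the defining cell type markers. One gene is not reported here. Genes of most similar pattern were taken from those with a mean of at least 5 TPM. The 31-base words came from GENCODE vM39 transcripts, and promoters from RefSeq.

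Samples of different groups share replicate numbers in their titles. Deviations from the group means correlated at 0.256 on average between same-numbered samples and at -0.121 between differently numbered ones, over genes, which are not independent. The second value follows largely from the first, since the deviations within a group cancel out for each gene. Every pair was over 0.1 within media (CDDO-Me against vehicle), within NRF2 KO CM, between WT CM and media with vehicle, between KEAP1 KO CM and WT CM with either treatment, and between KEAP1 KO CM/CDDO-Me or NRF2 KO CM/CDDO-Me and media/vehicle. In the remaining comparisons at least 1 pair was not.

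Alternatives were median-of-ratios scaling, no scaling, pseudocounts of 0.5 and 0.1, no filter, a mean of at least 5 TPM, no trend, array weights, the replicate block, the compared groups fitted alone, Tgtp1 and Tgtp2 summed, and libraries left out.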

Additional observations from a re-analysis of the deposited data

Results flagged for a closer look

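The effect of CDDO-Me (CDDO-Me minus vehicle, log2 scale) differed between media for all 7 IRGs by the limma interaction test, and the differences are listed here because that test passed. WT CM minus media, the effect differed by 5.17 ± 0.16 (SE) for Irgm1, 4.69 ± 0.14 for Irgm2, 6.66 ± 0.20 for Igtp, 9.17 ± 0.22 for Iigp1, 8.11 ± 0.60 for Tgtp1, 8.19 ± 0.34 for Tgtp2 and 5.06 ± 0.26 for Ifi47. The limma adjusted p ran from 2.63e-16 for Iigp1 to 6.44e-09 for Tgtp1. KEAP1 KO CM minus media, the values were 5.14 for Irgm1, 4.84 for Irgm2, 7.0 for Igtp, 9.19 for Iigp1, 8.84 for Tgtp1, 8.47 for Tgtp2 and 5.36 for Ifi47, with limma adjusted p from 2.52e-16 to 1.92e-09. WT CM minus NRF2 KO CM, they were 5.13 for Irgm1, 4.70 for Irgm2, 6.53 for Igtp, 9.12 for Iigp1, 8.56 for Tgtp1, 8.69 for Tgtp2 and 5.05 for Ifi47, with limma adjusted p from 2.96e-16 to 3.26e-09. For each gene, all 3 CDDO-Me libraries of WT CM and of KEAP1 KO CM were above all 3 vehicle libraries of the same CM. WT CM and media share no libraries in these contrasts, but the 3 contrasts share media or WT CM libraries with each other. No test for single stray libraries was applied to groups of 3.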

How the results depend on the processing

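With CDDO-Me in WT CM and in KEAP1 KO CM, against media/vehicle in these CM, and in the 3 interactions above, 7 of 7 IRGs were called under every alternative run, or 6 of 6 with Tgtp1 and Tgtp2 summed. KEAP1 KO CM against WT CM, with either treatment and as an interaction, and the NRF2 KO CM minus media interaction stayed at 0. The log2 rise in WT CM ranged from 9.12 to 9.75 for Iigp1 over alternatives. Depth is unknown, so that low levels such as those of Tgtp1 cannot be given a counting error.

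The smaller differences depended on the processing, and the cause was not tested. In WT CM against media with vehicle, 2 IRGs were called, 3 (with Tgtp2) with array weights or the replicate block, 1 with the compared groups alone and 1 to 2 with a library left out. In KEAP1 KO CM against media there were 2, and 1 to 2 with a library left out. In NRF2 KO CM against media there were 0, and 1 (Iigp1) with array weights. In WT CM against NRF2 KO CM with vehicle there was 1, then 0 with the compared groups alone, and 1 to 2 with a library left out (2, with Igtp, without NRF2 KO CM/vehicle replicate 1). CDDO-Me in media lowered 1 IRG, 2 with median-of-ratios scaling, no scaling, a pseudocount of 0.1, a mean of at least 5 TPM, the replicate block or the compared groups alone, 3 without both NRF2 KO CM libraries numbered 3, 4 with array weights, and 0 to 1 with a library left out. In NRF2 KO CM it lowered 1, 2 with median-of-ratios scaling or without both libraries numbered 3, 3 with no scaling or the replicate block, 4 with array weights, 0 with the compared groups alone, and 1 to 3 with a library left out: 2 without vehicle replicate 2 or 3 and 3 without CDDO-Me replicate 3. NRF2 KO CM/CDDO-Me against media/vehicle had 2, 3 (with Irgm1) with array weights or the replicate block, 1 without the filter or with the compared groups alone, and 1 to 2 with a library left out. Beside these, the replicate block added the calls of Tgtp2 in WT CM/vehicle and of Irgm1 in NRF2 KO CM/CDDO-Me against media/vehicle, and it changed no other call of an IRG.

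In WT CM against media with vehicle, the sign turned for Irgm1 (-0.06, and from -0.10 to 0.0089 with a library left out, the last without WT CM/vehicle replicate 2) and Tgtp1 (-0.13, and 0.29 with array weights, and from -0.50 to 0.33 with a library left out, positive at 0.33 without media/vehicle replicate 3 and at 0.08 without WT CM/vehicle replicate 3), neither of which was called.

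Counts over all genes moved more, from 988 to between 617 and 4114 for WT CM against media with vehicle, from 1101 to 704 and 5012 for KEAP1 KO CM, from 1 to 0 and 4 for NRF2 KO CM, from 0 to 974 for KEAP1 KO CM against WT CM and from 1449 to 168 and 3396 for WT CM against NRF2 KO CM. For CDDO-Me they moved from 822 to 523 and 3521 in media, 3812 to 7122 in WT CM, 3932 to 7004 in KEAP1 KO CM and 1313 to 139 and 2782 in NRF2 KO CM. Against media/vehicle they moved from 3663 to 6907 (WT CM/CDDO-Me), 3540 to 5815 (KEAP1 KO CM/CDDO-Me) and 1392 to 735 and 3678 (NRF2 KO CM/CDDO-Me), and for KEAP1 KO CM against WT CM with CDDO-Me from 6 to 0 and 263. Interactions moved from 2092 to 5405 (WT CM minus media), 2027 to 5328 (KEAP1 KO CM minus media), 1834 to 1135 and 4493 (WT CM minus NRF2 KO CM), 0 to 7 (NRF2 KO CM minus media) and 0 to 26 (KEAP1 KO CM minus WT CM). The highest value was with array weights in each. Without scaling, the median of all genes shifted to -0.12 (CDDO-Me in WT CM) and -0.17 (in KEAP1 KO CM), and the share of calls that were higher from 51.8% to 39.1% and from 50.2% to 34.6%. That share moved from 60.6% to 48.2% for WT CM against media with vehicle, 64.5% to 44.2% for WT CM against NRF2 KO CM, 54.6% to 33.9% for WT CM/CDDO-Me, 53.9% to 37.0% for KEAP1 KO CM/CDDO-Me and 55.2% to 40.5% for the KEAP1 KO CM minus media interaction.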
